A study of Mus musculus with 18 samples.

Results

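The interferon-stimulated genes described here were 39 genes chosen by name, among them Isg15, Irf7, Stat2 and Gbp2. All 39 were found in the deposited table, out of 14521 named genes tested. RNA was sequenced from 6 female SKH-1E Hairless mice, littermates of an outbred strain that had been irradiated for months with solar simulators, which imitate the ultraviolet spectrum of sunlight. Each mouse gave 1 library from nonlesional chronically irradiated skin (CHR), 1 from a papilloma (PAP) and 1 from a cutaneous squamous cell carcinoma (SCC), so that each group held 6 libraries and 18 were analysed in all. Every animal, the CHR group included, had received ultraviolet radiation, and no unirradiated skin was compared here. By the study's histology the lesions were of low grade and consisted mostly of tumour cells. CHR was a sample of skin that also held dermis, fat and muscle. Most SCC libraries also held markers of dermis and muscle, as given below.

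Interferons are cytokines that cells release on sensing viral or misplaced nucleic acid. Type I interferons bind the receptor of Ifnar1 and Ifnar2, and interferon gamma binds that of Ifngr1 and Ifngr2. Janus kinases at these receptors then phosphorylate STAT proteins. Complexes that hold STAT proteins bind the interferon-stimulated response element (ISRE) after a type I signal and the gamma-activated site (GAS) after interferon gamma. In skin, keratinocytes, fibroblasts and resident leukocytes can all respond, so in whole tissue the abundance of a transcript does not tell which cells made it.

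Promoter sequences are shown for 6 of the genes because they carry the binding elements that define this response, and because Igtp and Irgm2, which are described together below, share nearly the same stretch. They were taken from RefSeq on build GRCm38.p6, in windows of 250 bases before to 50 bases after the transcription start, and 31 of the 39 genes had a window. The ISRE core was searched as GAAA, any 2 bases and GAAA on both strands, and the GAS core as TTCNNNGAA, which reads the same on both strands. Each stretch is written 5′ to 3′ along its gene's strand with the matches in capitals.
Isg15: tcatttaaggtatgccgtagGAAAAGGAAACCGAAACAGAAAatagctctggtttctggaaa
Ifit1: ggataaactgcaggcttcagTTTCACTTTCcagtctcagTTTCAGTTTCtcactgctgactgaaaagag
Oas1a: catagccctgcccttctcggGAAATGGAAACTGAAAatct
Irf1: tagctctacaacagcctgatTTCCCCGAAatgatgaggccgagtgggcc
Igtp: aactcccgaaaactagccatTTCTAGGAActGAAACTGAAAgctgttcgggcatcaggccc
Irgm2: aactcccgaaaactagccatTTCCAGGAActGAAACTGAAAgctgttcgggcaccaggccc
The stretches lie at chr4:156200855-156200916 on the minus strand (Isg15), chr19:34640765-34640833 on the plus strand (Ifit1), chr5:120907526-120907565 on the minus strand (Oas1a), chr11:53769904-53769952 on the plus strand (Irf1), chr11:58199491-58199551 on the plus strand (Igtp) and chr11:58214882-58214942 on the plus strand (Irgm2). None of them held an annotated exon base of its gene.

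Isg15 held 3 overlapping ISRE matches, the farthest beginning 78 bases before the start. Ifit1 held 2 separate matches and Oas1a 2 overlapping ones, while the Irf1 stretch held a GAS match and no ISRE match. In Igtp and Irgm2 a GAS match was followed after 2 bases by an ISRE match, and the printed stretches of these neighbouring genes were identical at 59 of 61 bases. An ISRE match lay in the window of 17 of the 31 genes (54.8%), against 3.99% of 27025 genes with a window. A GAS match lay in 9 of 31 (29.0%), against 9.55%. The 7 immunity-related GTPases (IRG) and guanylate-binding proteins (GBP) had 6 windows with an ISRE match and 3 with a GAS match. These matches describe the letters in the windows and do not show binding.

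The data behind these values were whole-number scores deposited by the authors, made from gene counts by scaling and a variance-stabilizing transformation. The transformation was inverted to give normalised reads, which are the levels quoted below, at a depth of 15.4 to 21.0 M reads per library. Fold changes are differences of the mean of log2(score + 1) between groups, tested with limma across all genes and called at an adjusted p below 0.05. This scale understates the change of genes with few reads. Markers of keratinocytes were abundant in every library, at 282857 to 641607 summed normalised reads in CHR, 374289 to 813699 in PAP and 113401 to 547399 in SCC. The SCC library of mouse 10 held 198 normalised reads of skeletal muscle markers, 17029 of dermal fibroblast markers and 3000 of leukocyte markers. Each was the lowest value of the SCC group and lay within the range of the papillomas. The PAP library of mouse 2 held 25526 normalised reads of the skeletal muscle markers, against 88.1 to 881 in the other papillomas. These muscle markers summed to 342863 to 517558 in CHR and 198 to 171532 in SCC, with an SCC median of 94728. The dermal fibroblast markers had medians of 207665 in CHR, 54839 in PAP and 227510 in SCC. The part of such tissue in the comparisons was not tested. Calls among the 39 genes and medians of the 39 genes that changed without either library are given both ways.

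Between papillomas and skin, no gene of the set passed the test. In PAP relative to CHR, 0 of the 39 genes rose and 0 fell by limma, whereas 22.8% of all genes tested rose and 28.7% fell. At an unadjusted p below 0.05 the count was also 0, and limma-voom on the recovered reads gave 0 in each direction. The lowest adjusted p among the 39 was 0.147, that of Ifit3. Their median log2 fold change was −0.01, beside 0.00 over all genes, with 19 values above 0 and 20 below. That median rested on single libraries. Leaving out each mouse in turn gave medians from −0.25 (mouse 10 left out) to 0.32 (mouse 2 left out), and leaving out the PAP library of mouse 2 gave 0.35. The values of the groups overlapped for each of the 39 genes, while 33.8% of all genes had groups that did not overlap.

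Wide intervals went with these changes. The median SE of the 39 log2 fold changes was 0.45, beside 0.16 over all genes, and the median half-width of the 95% interval was 0.94, beside 0.34. A change of 2-fold in one direction or the other lay inside the interval of 28 of the 39 genes in PAP relative to CHR. A shared change of that size was therefore not shown to be absent for most of them. Their median absolute log2 fold change in PAP relative to CHR was 0.28, below the 0.41 of all genes. In SCC relative to PAP it was 0.31, above the 0.18 of all genes, and in SCC relative to CHR 0.20, below 0.31.

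In SCC relative to PAP, 0 genes rose and 0 fell, while 4.99% of all genes rose and 0.592% fell. The median log2 fold change was −0.14, beside −0.02 over all genes. Leaving out each mouse gave medians from −0.30 (mouse 2) to 0.03 (mouse 9), and leaving out the PAP library of mouse 2 gave −0.44. At an unadjusted p below 0.05, 1 gene was lower, Trim25. Limma-voom called 0 of the 39, but also 0 of all 14521 genes in this comparison. Without the SCC library of mouse 10, calls over all genes went from 810 to 2458, and those among the 39 remained 0. The median of the 39 genes was then −0.18. No gene of the 39 had groups that did not overlap, and 0.413% of all genes did.

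In SCC relative to CHR, 0 genes rose and 1 fell, Ifi27l2a, while 15.1% of all genes rose and 21.4% fell. The share of these genes that fell was thus well below that of the table. The median log2 fold change was −0.10, beside −0.02 over all genes, with medians from −0.44 (mouse 10 left out) to 0.30 (mouse 3 left out). It was −0.15 without the SCC library of mouse 10. The groups overlapped for all 39 genes, while 19.8% of all genes had groups that did not overlap.

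The study's own progression model was also fitted to every gene, a linear mixed model with the mouse as a random term that sorts genes into early, late and stepwise classes at an unadjusted p below 0.05. It placed 0 of the 39 genes in the early class, which held 41.1% of all genes, 0 in the late class, which held 2.2%, and 0 in the stepwise class, which held 0.523%.

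**Figure D1:**
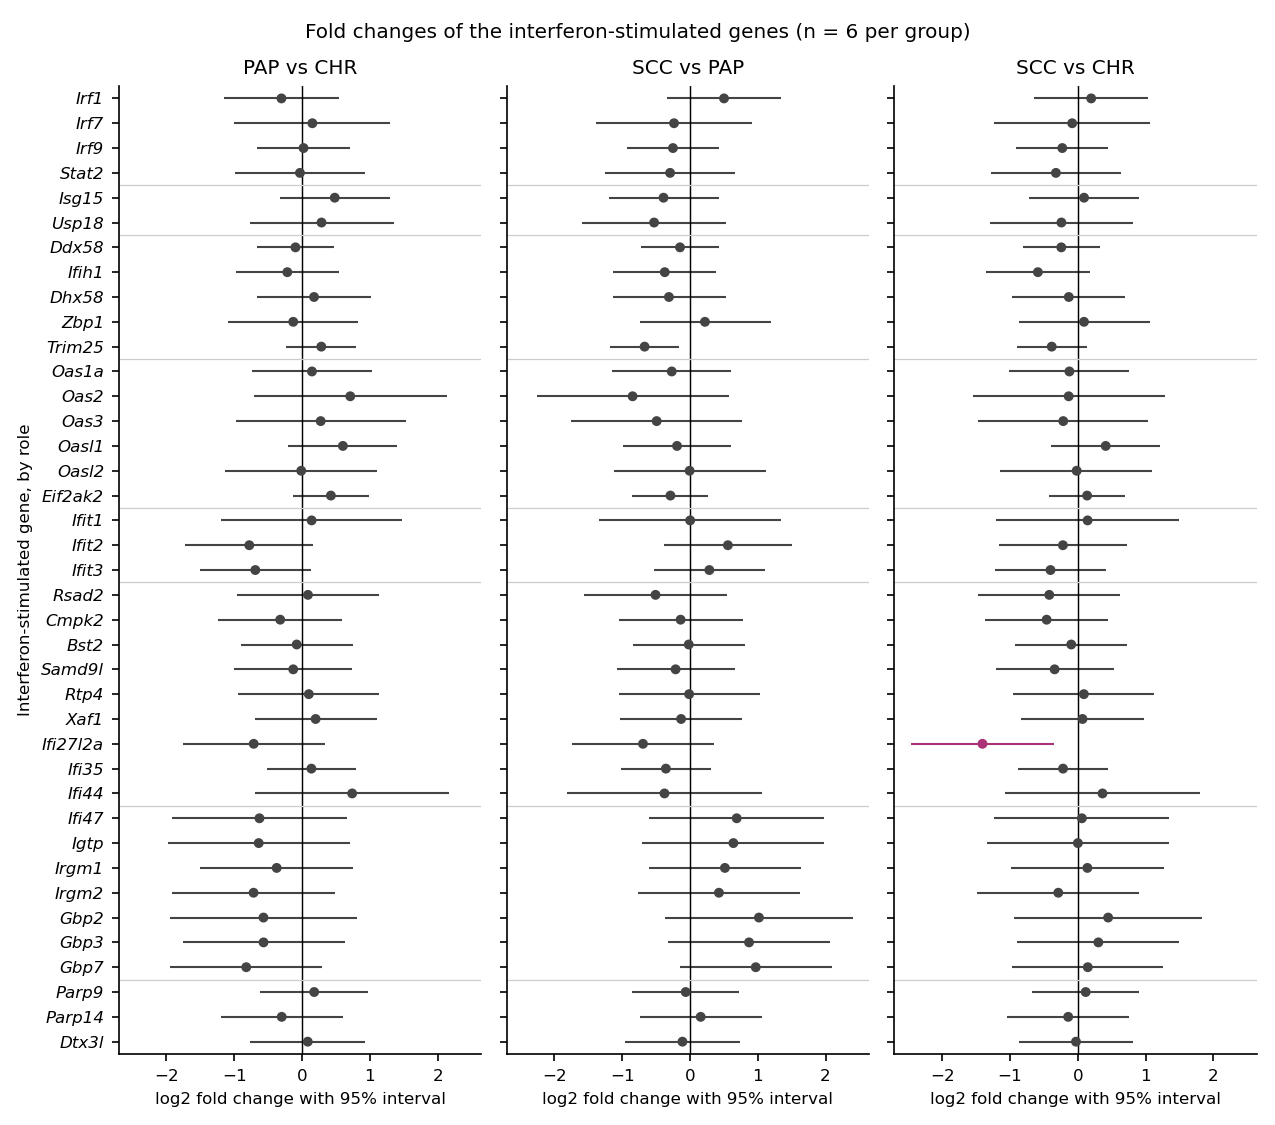
Log2 fold change of each of the 39 genes on the log2(score + 1) scale (x axis) in PAP vs CHR, SCC vs PAP and SCC vs CHR, with genes on the y axis grouped by role. Points are estimates and lines 95% intervals from limma with 6 libraries per group. The coloured point is Ifi27l2a in SCC vs CHR, the 1 called change.

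Ifi27l2a, a small interferon-inducible protein of the IFI27 family, lies at chr12:103442167-103443680 (mm10, minus strand). Its level in CHR ranged from 192 to 2827 normalised reads with a median of 809. In PAP it ranged from 158 to 1244 with a median of 521, and in SCC from 128 to 648 with a median of 250.3. The SCC libraries were low apart from mouse 2, but the groups overlapped, because CHR of mouse 10 stood at 192. The log2 fold change in SCC relative to CHR was −1.40 ± 0.50 (SE, n = 6 and 6, limma adjusted p = 0.0353), and SCC was lower than CHR in 5 of 6 mice. In PAP relative to CHR it was −0.71 ± 0.50 (adjusted p = 0.246, limma).

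The Ifi27l2a call lay near the threshold and was lost when some single animals were left out. By limma without mouse 3, 7, 8 or 9 the adjusted p was 0.0878, 0.0829, 0.0882 or 0.0957. It was 0.0575 without the SCC library of mouse 10 and 0.0505 by limma-voom. The estimate itself stayed between −1.74 and −1.14 in all 16 alternatives run. It moved little without mouse 7, 8 or 9, to −1.42, −1.38 or −1.31, and more without mouse 3, to −1.14. Markers of other cells also moved in this comparison. In SCC relative to CHR, 2 of 5 neutrophil markers rose, and all 6 leukocyte markers fell. Their summed level was 13417 to 22137 normalised reads in CHR and 3000 to 17215 in SCC, and their part in the Ifi27l2a change was not tested.

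Trim25, the ubiquitin ligase that activates the RNA sensor RIG-I, was the gene nearest to a call between SCC and PAP. In CHR it ranged from 1747 to 4430 normalised reads with a median of 2541. In PAP it ranged from 1461 to 5004 with a median of 3651, and in SCC from 1645 to 2409 with a median of 1969. The SCC values were tightly grouped, and the lowest PAP value was that of mouse 2. The log2 fold change in SCC relative to PAP was −0.67 ± 0.24 (SE, n = 6 and 6, limma adjusted p = 0.107), and SCC was lower in 5 of 6 mice. By limma without the PAP library of mouse 2 it was −0.89 with an adjusted p of 0.0175, and without all libraries of mouse 2 it was −0.88 with an adjusted p of 0.0470. Without that PAP library, Trim25 was also called higher in PAP relative to CHR, at 0.51 (limma adjusted p = 0.0368), against 0.28 ± 0.24 (SE) with it.

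**Figure D2:**
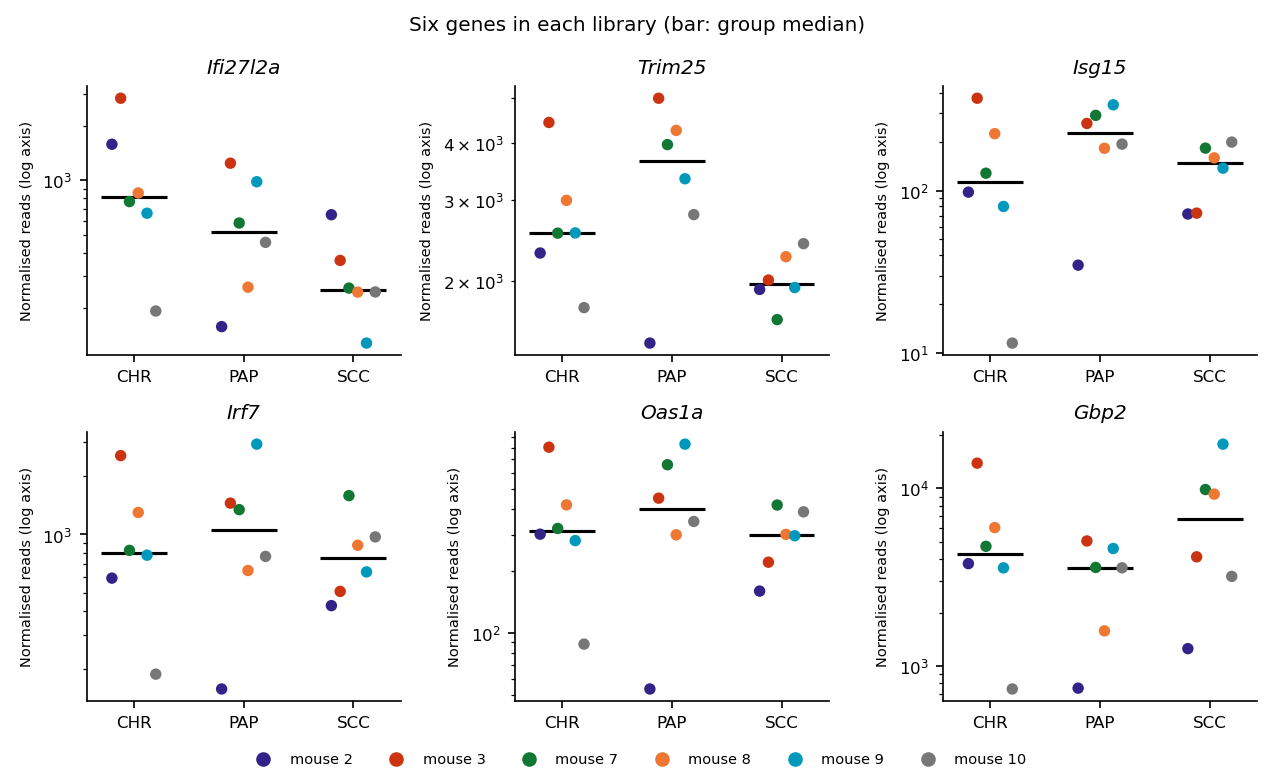
Normalised reads (log y axis) of Ifi27l2a, Trim25, Isg15, Irf7, Oas1a and Gbp2 in the 6 libraries of CHR, PAP and SCC (x axis), coloured by mouse, with the group median as a bar. CHR of mouse 3 is the highest CHR value and PAP of mouse 2 the lowest PAP value in each panel.

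The variation of these genes lay between the libraries of a group. Each mouse gave 1 library per tissue, so differences between animals, pieces of tissue and libraries cannot be told apart. In CHR the median SD of the 39 genes between libraries was 1.17 on the log2(normalised reads + 1) scale, beside 0.22 over all genes. In PAP it was 1.13 beside 0.41, and in SCC 0.69 beside 0.41. In CHR, 37 of the 39 genes lay above the 90th percentile of all genes by this SD, against 12 of 39 in PAP and 1 of 39 in SCC. The highest CHR library exceeded the lowest 10.8-fold at the median gene, with 1 read added to both, where the median of all genes was 1.5-fold. The corresponding values were 7.85-fold in PAP and 3.49-fold in SCC, beside 2.17-fold and 2.15-fold for all genes. The smaller spread in SCC and the larger one in CHR are descriptions of 6 libraries each, and the difference between them was not tested.

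**Figure D3:**
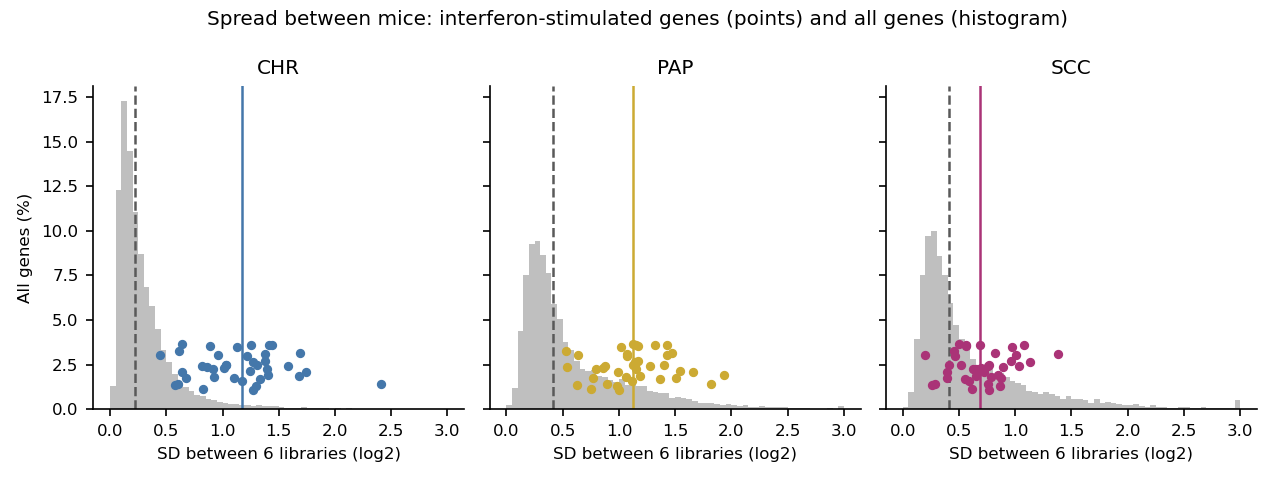
SD between the 6 libraries of a group on the log2(normalised reads + 1) scale (x axis) for all genes (histogram, y axis in percent of genes, values above 3 placed in the last bin) and for the 39 genes (points, placed at arbitrary heights). Solid lines are the medians of the 39 genes (1.17, 1.13 and 0.69) and dashed lines those of all genes (0.22, 0.41 and 0.41).

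The genes moved together from library to library within a group. CHR of mouse 3 was the highest CHR library for 39 of 39 genes, whereas it was highest for 19.3% of all genes. CHR of mouse 10 was the lowest for 37 of 39, against 19.1% of all genes, and PAP of mouse 2 was the lowest papilloma for 39 of 39, against 17.3%. In SCC the order was looser, and mouse 2 was lowest for 31 of 39 genes while the highest value was shared mainly by mouse 7 (16 genes), mouse 10 (11 genes) and mouse 9 (10 genes). Such a shared order means that the 39 values are not independent of one another.

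To place the libraries, each gene's log2(normalised reads + 1) was centred on its mean over the 18 libraries and the 39 differences were averaged. In CHR this mean level was −1.87 in mouse 10, −0.11 in mouse 2, −0.05 in mouse 9, 0.16 in mouse 7, 0.66 in mouse 8 and 1.51 in mouse 3. In PAP it was −1.97 in mouse 2, −0.30 in mouse 8, −0.15 in mouse 10, 0.61 in mouse 7, 0.66 in mouse 3 and 1.02 in mouse 9. In SCC it was −0.92 in mouse 2, −0.40 in mouse 3, 0.11 in mouse 10, 0.21 in mouse 9, 0.26 in mouse 8 and 0.57 in mouse 7. The order of the mice differed between tissues: mouse 3 was highest in CHR and second from the bottom in SCC, and mouse 10 was lowest in CHR and in the middle of the other groups. PAP exceeded CHR in 3 of 6 mice and SCC exceeded PAP in 3 of 6. The mean differences were −0.07 ± 1.37 and −0.01 ± 0.81 (SD over 6 mice).

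**Figure D4:**
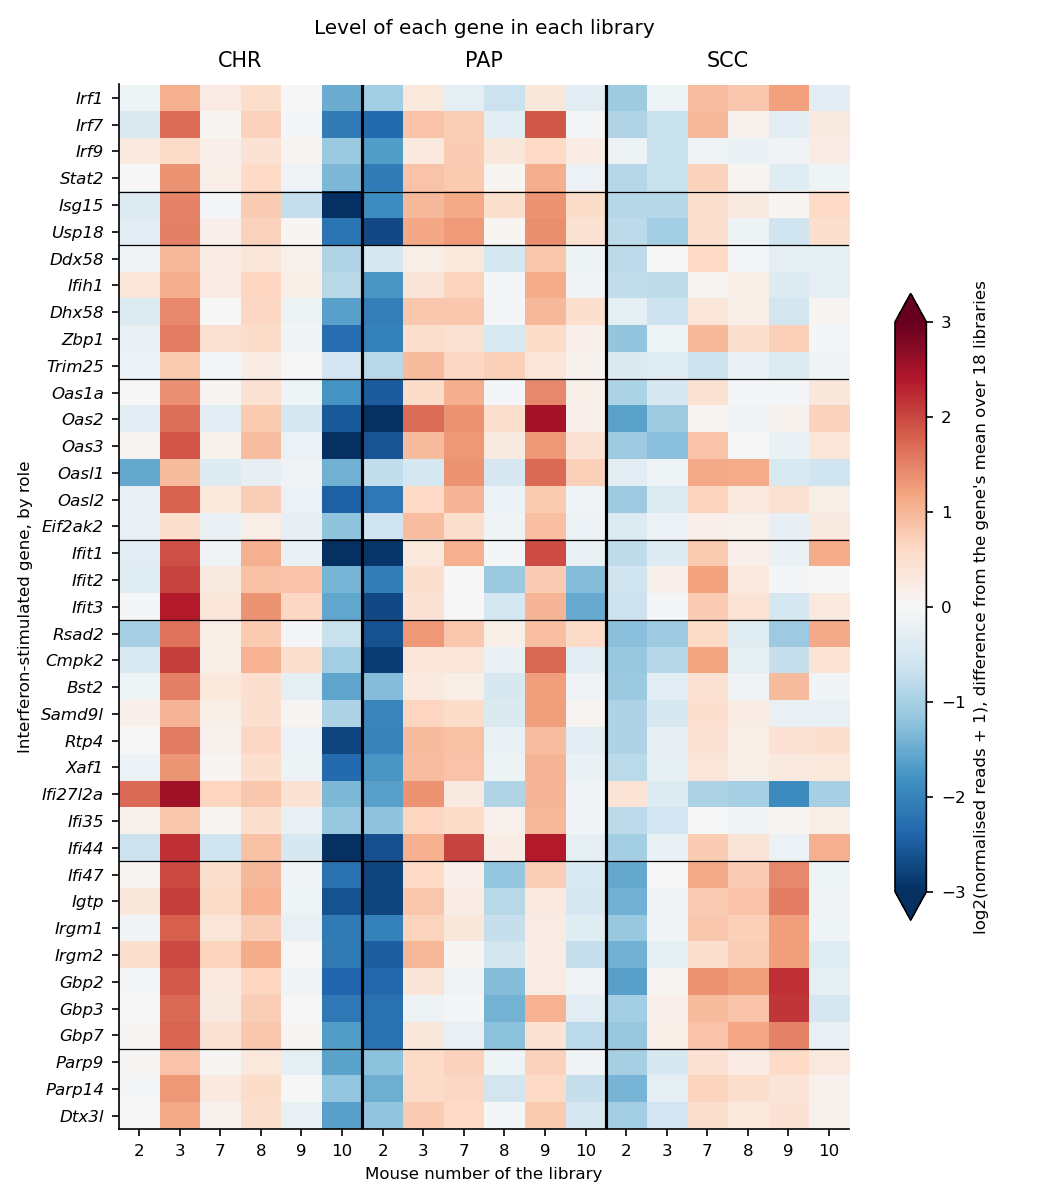
Level of the 39 genes (rows, grouped by role) in the 18 libraries (columns, by group and mouse number) as the difference of log2(normalised reads + 1) from the gene's mean over all libraries. Whole columns stand out, with CHR of mouse 3 high for 39 genes and CHR of mouse 10 and PAP of mouse 2 low.

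The levels of other cells' markers were set beside these library levels. The summed leukocyte markers stood at 17312 normalised reads in CHR of mouse 3, 15925 in CHR of mouse 10 and 13417 in CHR of mouse 2, while the summed level of the 39 genes in the same libraries was 137636, 17803 and 51304. The summed T cell markers in CHR were 980 normalised reads in mouse 10, 1283 in mouse 2, 1462 in mouse 9, 1937 in mouse 7, 2096 in mouse 8 and 1856 in mouse 3. The mice with the fewest T cell reads were thus those with the lowest level of the 39 genes, in the same order, while mouse 3 had fewer than mice 7 and 8. The plasmacytoid dendritic cell markers were also lowest in mouse 10, at 405, against 531 to 739 in the other CHR libraries. The 739 was that of mouse 2, whose CHR level of the 39 genes was second lowest. The skeletal muscle markers were highest in that same library, at 517558, and lowest in CHR of mouse 9, at 342863. CHR of mouse 10 was also lowest for the endothelium, adipocyte and keratinocyte markers, at 3455, 5147 and 282857. In PAP the T cell markers were lowest in mouse 10, at 142, and next in mouse 2, at 227, while mouse 2 had the lowest level of the 39 genes. In SCC they were 360, 386 and 418 in mice 3, 10 and 2. These mice had the lowest SCC levels of the 39 genes, but in another order. The T cell markers were 854, 973 and 1110 in SCC of mice 9, 8 and 7, the order of their levels of the 39 genes. Across groups the leukocyte markers fell, 6 of 6 in PAP relative to CHR, from 13417 to 22137 normalised reads in CHR to 855 to 5616 in PAP. The macrophage and dendritic cell markers fell for 9 of 9 genes measured, from 41709 to 72077 down to 1413 to 8528. Neutrophil markers went the other way, with 2 of 5 higher and 1 lower in PAP. They summed to 2054 to 8252 in CHR and 3788 to 28722 in PAP. Plasmacytoid dendritic cells make large amounts of type I interferon. The 4 markers listed for them, Siglech, Ccr9, Klra17 and Cox6a2, all fell, from 405 to 739 in CHR to 42.0 to 154 in PAP. In SCC their sum was highest in mouse 2, at 425, and lowest in mouse 10, at 113. The muscle markers were highest and lowest in the same SCC libraries, at 171532 and 198. In PAP the sum was highest in mouse 7 and the muscle markers in mouse 2. The part of muscle in this sum was not tested. The 39 interferon-stimulated genes summed to 17803 to 137636 normalised reads in CHR and 16165 to 92349 in PAP, ranges that overlap widely. In whole tissue, fewer cells of a type and less RNA per cell cannot be told apart, and the part of cell content in the values of these genes was not tested.

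Among the transcription factors of the response, Irf7, the master regulator of interferon alpha genes, ranged from 189 to 2561 normalised reads in CHR with a median of 804. It ranged from 158 to 2936 in PAP with a median of 1057, and from 428 to 1589 in SCC with a median of 759. The CHR range spanned 13.5-fold and contained most of the lesion values. The log2 fold change in PAP relative to CHR was 0.15 ± 0.55 (SE, n = 6 and 6, limma adjusted p = 0.835).

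Stat2, a STAT protein of the type I signal, ranged from 744 to 4836 normalised reads in CHR with a median of 2043. It ranged from 441 to 3984 in PAP with a median of 2594, and from 1035 to 3067 in SCC with a median of 1600.1. The 3 ranges overlapped, and Stat2 was higher in PAP than CHR in 3 of 6 mice. Irf1, an early target of interferon gamma, ranged from 947 to 5572 in CHR with a median of 2954. It ranged from 1307 to 3385 in PAP with a median of 2170.0, and from 1284 to 6331 in SCC with a median of 3569. Its log2 fold change was −0.30 ± 0.40 (SE) in PAP relative to CHR and 0.50 ± 0.40 in SCC relative to PAP, with limma adjusted p of 0.549 and 0.5. Irf9, the DNA-binding subunit of the complex that holds STAT2, had a log2 fold change of 0.02 in PAP relative to CHR and −0.25 in SCC relative to PAP.

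Isg15 encodes a ubiquitin-like protein that is attached to other proteins, and Usp18 the protease that removes it. Isg15 ranged from 11.5 to 369.5 normalised reads in CHR with a median of 113. It ranged from 34.7 to 337 in PAP with a median of 226, and from 71.7 to 199 in SCC with a median of 148. The lowest and highest CHR libraries, mice 10 and 3, lay 32.1-fold apart and enclosed every lesion value. The log2 fold change in PAP relative to CHR was 0.48 ± 0.39 (SE, n = 6 and 6, limma adjusted p = 0.315). Usp18 had a log2 fold change of 0.29 in PAP relative to CHR and −0.53 in SCC relative to PAP.

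Of the nucleic acid sensors, Ddx58 encodes RIG-I, which binds viral RNA in the cytosol. It ranged from 676 to 2460 normalised reads in CHR with a median of 1421. It ranged from 868 to 2241 in PAP with a median of 1269.7, and from 730.4 to 1908 in SCC with a median of 1122. Ddx58 was among the steadier genes of the set, with a 3.64-fold range in CHR. Its log2 fold change was −0.10 ± 0.27 (SE) in PAP relative to CHR and −0.15 ± 0.27 in SCC relative to PAP (limma adjusted p = 0.787 and 0.804). Ifih1, which encodes the RNA sensor MDA5, had a log2 fold change of −0.59 in SCC relative to CHR and was lower in 5 of 6 mice (limma adjusted p = 0.218). Dhx58, which encodes LGP2, and Zbp1, a sensor of Z-form nucleic acid, had log2 fold changes between −0.31 and 0.22 in the 3 comparisons.

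The active enzymes of the OAS family make 2′-5′ oligoadenylates when double-stranded RNA activates them, and Eif2ak2 encodes PKR, a kinase that stops translation. Oas1a ranged from 88.3 to 804 normalised reads in CHR with a median of 313. It ranged from 53.4 to 832 in PAP with a median of 401.45, and from 160.0 to 420.1 in SCC with a median of 299.9. The SCC values sat inside the range of the other groups. Reads of Oas1a are uncertain because 57.6% of its 50-base stretches also occur in the neighbouring Oas1g. The 6 genes of this family had log2 fold changes from −0.01 to 0.71 in PAP relative to CHR and from −0.84 to −0.004 in SCC relative to PAP, and 0 passed the test. Oas2 had the widest range of the 6, 102.5 to 4797 normalised reads in PAP. Oasl1 gained a call in PAP relative to CHR under quantile normalization alone, with a log2 fold change of 0.91 and a limma adjusted p of 0.0436, against 0.60 and 0.199 in the test as designed. Oas3, Oasl2 and Eif2ak2 were not called in any of the 16 alternatives.

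The IFIT genes encode proteins that bind foreign RNA ends. Ifit1 ranged from 70.1 to 2508 normalised reads in CHR with a median of 589. It ranged from 85.6 to 2571 in PAP with a median of 728, and from 387 to 1427 in SCC with a median of 647. CHR and PAP thus spanned 35.8-fold and 30.1-fold, and SCC 3.69-fold. The log2 fold change was 0.14 ± 0.64 (SE) in PAP relative to CHR and 0.00 ± 0.64 in SCC relative to PAP (limma adjusted p = 0.870 and 0.998). Ifit2 was lower in PAP than CHR in 5 of 6 mice, by −0.78 ± 0.45 (SE, n = 6 and 6), without passing the test (limma adjusted p = 0.156). Ifit3 had a log2 fold change of −0.69 in the same comparison, and 51.2% of its 50-base stretches also occur in Ifit3b.

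The 9 other effectors were Rsad2, which makes a nucleotide that stops viral polymerases, its neighbour Cmpk2, a nucleotide kinase, Bst2, which tethers budding virus to the cell, and Samd9l, Rtp4, Xaf1, Ifi27l2a, Ifi35 and Ifi44. Their log2 fold changes in PAP relative to CHR ran from −0.71 for Ifi27l2a to 0.74 for Ifi44, with a median of 0.09. In SCC relative to PAP all 9 were below 0, from −0.69 to −0.01, and 0 passed the test. Ifi44 varied most within a group, from 10.6 normalised reads in CHR of mouse 10 to 1664 in CHR of mouse 3, which is 158-fold. Samd9l and Ifi35 varied least of the 9 in CHR, by 3.91-fold and 3.83-fold.

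The interferon-inducible GTPases, which act on membranes around intracellular microbes and are strong targets of interferon gamma, were described by Igtp and Gbp2. Igtp ranged from 246 to 6416 normalised reads in CHR with a median of 2077. It ranged from 223 to 2700.5 in PAP with a median of 1429.7, and from 557 to 4374 in SCC with a median of 1989.5. The highest value of PAP was below the highest of either other group. Gbp2 ranged from 743 to 13876 in CHR with a median of 4246. It ranged from 751 to 5060.0 in PAP with a median of 3582, and from 1253 to 17752 in SCC with a median of 6702. The SCC value of mouse 9 was the highest of all 18 libraries.

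All 7 GTPase genes, Ifi47, Igtp, Irgm1, Irgm2, Gbp2, Gbp3 and Gbp7, had estimates below 0 in PAP relative to CHR, from −0.82 for Gbp7 to −0.37 for Irgm1, and above 0 in SCC relative to PAP, from 0.43 for Irgm2 to 1.02 for Gbp2. These signs were the same for all 7 in each of the 16 alternatives, but the sizes were not. The median of the 7 in PAP relative to CHR was −0.63. It became −0.24 when the PAP library of mouse 2 was left out, and leaving out mouse 2, 8 or 10 gave −0.27, −0.36 or −1.10. The median in SCC relative to PAP was 0.69, and it became 0.30 when that PAP library was left out. None of these estimates passed the test, the lowest limma adjusted p being 0.207 and 0.293, both for Gbp7. Other GBP genes, outside the 39 and named after their values were seen, did pass in PAP relative to CHR. Gbp4, Gbp8, Gbp9 and Gbp11 were lower, at −1.595, −1.85, −1.55 and −1.20 (limma adjusted p = 0.0298, 0.0124, 0.00733 and 0.00168). Gbp11 had few reads, and Gbp5, Gbp6 and Gbp10 were not called. Relative to CHR the SCC estimates of the 7 genes lay between −0.29 and 0.45. Igtp and Irgm2 have overlapping gene spans on the same strand, and 12.3% of the 50-base stretches of Igtp also occur in Irgm2, so their reads are not fully separate.

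Set against the OAS family and PKR, the GTPases took a different level in papillomas. The mean centred level of the 7 GTPases minus that of the 6 OAS and PKR genes was −0.09 to 0.52 in the CHR libraries, −1.06 to −0.17 in PAP and −0.45 to 1.68 in SCC. The CHR and PAP values did not overlap. The difference was lower in PAP than CHR in 6 of 6 mice, by 1.06 ± 0.39 on average (SD over 6 mice), and higher in SCC than PAP in 6 of 6, by 1.13 ± 0.99, although by only 0.04 in 1 of them. This pair of groups was chosen after the values were seen, so it is given without a test.

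**Figure D5:**
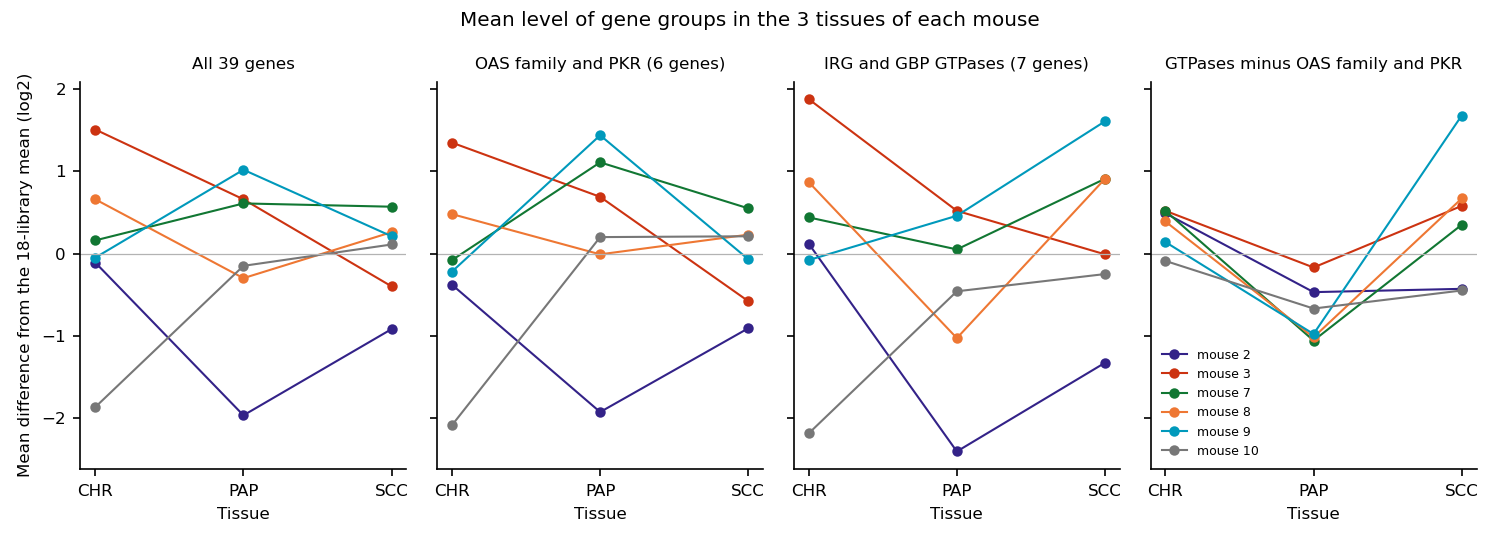
Mean centred log2 level (y axis) of all 39 genes, of the OAS family and PKR (6 genes), of the IRG and GBP GTPases (7 genes) and of the GTPases minus the OAS family and PKR, in the CHR, PAP and SCC library of each mouse (x axis, 1 line per mouse). In the panels of all 39 genes and of the OAS family and PKR the lines cross without a common direction. In the GTPase panel 2 of 6 lines rise from CHR to PAP and 5 of 6 rise from PAP to SCC. In the last panel all 6 lines fall from CHR to PAP and rise from PAP to SCC.

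Parp9, Parp14 and Dtx3l encode ADP-ribosyltransferases and the ubiquitin ligase partner of PARP9. Parp14 ranged from 1955 to 10854 normalised reads in CHR with a median of 4866. It ranged from 1583 to 6725 in PAP with a median of 4754, and from 1683 to 6949 in SCC with a median of 5306. The medians lay close together relative to these ranges. The 3 genes had log2 fold changes between −0.30 and 0.18 in the 3 comparisons, and 0 passed the test. Parp9 and Dtx3l overlap on opposite strands, and whether the counting used strand was not given in the sources used here.

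Per length, the levels of the genes differed by over an order of magnitude. In CHR the median library held from 40.4 normalised reads per kilobase of exon for Ifi44 to 1748 for Ifi27l2a. In PAP the lowest was Cmpk2 at 42.7 and the highest Gbp2 at 1424, and in SCC they were the same genes at 28.2 and 2664. Gbp2 and Igtp were in the upper range of the set in each group, at 1688 and 1027 in CHR.

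Upstream of these genes, the ligands were scarce and the receptors lower in papillomas. Of 13 interferon genes listed, 2 were in the table, Ifng and Ifnk. Ifng, made mainly by T and natural killer cells, ranged from 2.88 to 64.5 normalised reads in CHR, 0 to 21.9 in PAP and 6.23 to 103 in SCC. Its log2 fold change in PAP relative to CHR was −0.48 ± 0.26 (SE, limma adjusted p = 0.129). Ifnk, a type I interferon made by keratinocytes, ranged from 0 to 7.30 in CHR with a median of 2.02, from 2.40 to 145 in PAP with a median of 8.15, and from 0 to 20.6 in SCC with a median of 2.84. The high PAP values were those of mice 7 and 3. Ifnk rose in PAP relative to CHR by 0.76 ± 0.30 (SE, limma adjusted p = 0.0451). It had few reads in most libraries. The call was lost in 6 of 16 alternatives, by limma with the mouse as a block (adjusted p = 0.0514), with only PAP and CHR in the fit (0.0730), without mouse 7 (0.177), 3 (0.163) or 8 (0.0601), and by limma-voom (0.0612).

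Of the 6 receptor genes, 4 fell in PAP relative to CHR and 0 rose, where 28.7% of all genes fell and 22.8% rose. The counts in the lists that follow are to be read beside the same shares. Ifnar1 ranged from 1749 to 2563 normalised reads in CHR, 950.2 to 1499 in PAP and 1036 to 2747 in SCC. Every PAP value was below every CHR value, and the log2 fold change was −0.72 ± 0.18 (SE, n = 6 and 6, limma adjusted p = 0.00319). Ifnar2 ranged from 577 to 894 in CHR and 169 to 510.4 in PAP, again without overlap, with a log2 fold change of −0.88 ± 0.23 (limma adjusted p = 0.00368). The others that fell were Il10rb, shared by interferon lambda and interleukin-10 family receptors, at −1.27 (limma adjusted p = 0.000214), and Ifngr2, named after its values were seen, at −1.06 (0.000527). Ifngr1, which fell short of the test, ranged from 2193 to 2954 in CHR and 1424 to 3446 in PAP, with a log2 fold change of −0.32 (limma adjusted p = 0.184). All 4 receptor calls were kept in the 16 alternatives. In SCC relative to CHR, 2 receptors fell, Il10rb at −0.95 and Ifngr2 at −0.88. With the mouse as a block, Ifnar2 was also called lower in SCC relative to CHR, at −0.52 (limma adjusted p = 0.0276, against 0.0831 without the block). The leukocyte, fibroblast and adipocyte markers fell in the same comparison of PAP with CHR, for 6 of 6, 4 of 6 and 4 of 5 genes, and their part in the receptor values was not tested.

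Of the 5 kinases and STATs, 1 fell in PAP relative to CHR, Tyk2, at −0.48 (limma adjusted p = 0.0221, but 0.0819 without mouse 7 and 0.0510 without mouse 8), and 0 rose. Among 8 other IRF genes, 4 fell in PAP relative to CHR. Irf8 and Irf4, factors of myeloid and lymphoid cells, fell, with log2 fold changes of −1.98 and −1.84 (limma adjusted p = 0.000138 and 0.000444).

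Of the 13 inhibitors, 4 rose and 3 fell in PAP relative to CHR. Socs3, which blocks Janus kinases, rose by 0.96 and Ptpn6, a phosphatase of blood cells, fell, with a log2 fold change of −1.56 (limma adjusted p = 0.00470 and 2.17e-05). Of the 15 further sensors and adaptors, 8 fell and 1 rose in that comparison. The endosomal RNA receptors Tlr8 and Tlr7 fell, with log2 fold changes of −3.21 and −2.54, and Mb21d1, which encodes the DNA sensor cGAS, rose by 0.39 (limma adjusted p = 1.04e-06, 8.13e-07 and 0.0336). The Mb21d1 call was lost by limma without mouse 7, 9 or 10 (adjusted p = 0.131, 0.140 and 0.127). The leukocyte and the macrophage and dendritic cell markers fell in the same comparison, 6 of 6 and 9 of 9, and their part in the values of these sensors was not tested. Between SCC and PAP, 2 of the 15 rose in SCC, where 4.99% of all genes did. Tlr8 rose by 1.66 (limma adjusted p = 0.0231), a call lost in 5 of 16 alternatives, by limma-voom (0.102), with only SCC and PAP in the fit (0.123) and without mouse 3 (0.116), 7 (0.164) or 8 (0.189). Ifi204, a DNA-binding protein named after its values were seen, rose by 1.08 (limma adjusted p = 0.0470). It kept its call in 7 of 16 alternatives, with a highest adjusted p of 0.251 without mouse 7.

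A longer list of 73 other interferon-stimulated genes had 68 in the table. In PAP relative to CHR, 26 of these fell and 4 rose, which is to be read beside the 28.7% and 22.8% of all genes. The largest fall was that of Ifi205, a DNA-binding protein of the PYHIN family, at −2.95 (limma adjusted p = 5.89e-07), and the largest rise that of Slfn9 at 1.19 (0.000156). In SCC relative to PAP 0 of the 68 fell and 0 rose, and in SCC relative to CHR 10 fell and 3 rose, where 21.4% and 15.1% of all genes did. With the mouse as a block, 6 of the 68 rose in SCC relative to PAP, and 15 fell in SCC relative to CHR. Without the SCC library of mouse 10, 7 rose and 1 fell in SCC relative to PAP, and 5 fell in SCC relative to CHR. That last count was from 4 (without mouse 3) to 12 (without mouse 10) when each mouse was left out. Mx1, an antiviral GTPase, varied as the 39 genes did, from 66.2 to 1426 normalised reads in CHR and 87.3 to 1648 in PAP, with a log2 fold change of 0.01 ± 0.56 (SE, limma adjusted p = 0.994).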

How the data were processed

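RNA from mouse skin and lesions was sequenced as read pairs, aligned to mm10 with MOSAIK and counted per gene with HTSeq (versions not given in the sources used here), per the study's methods and the submitters' processing notes. The authors deposited a whole-number score per gene and library, made from counts by scaling factors and a variance-stabilizing transformation, in which 0 reads appear as 39. Genes low in every library had been removed (smallest row maximum 57). Groups came from the labels, and the 3 samples of a number came from 1 animal. The 39 genes and all lists were chosen with earlier results of these data known.

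Of 14542 entries, 21 named by numbers (at most 0.236% of a library's summed scores) were left out. Normalised reads were recovered by inverting the transformation around a zero level of 39.13, and 99.29% of values came out as whole reads within the step that rounding of the score leaves. Depth was 15.4 to 21.0 M reads, which limits precision for the scarcest genes only. No 2 libraries shared more than 2.24% of values. The test as designed was limma 3.58.1 (R 4.3.3) on log2(score + 1), fitted to 18 libraries with 3 group coefficients alone, and p-values were adjusted by Benjamini-Hochberg over 14521 genes. Limma was used because the files hold scores and not counts. Low genes change less on this scale. The steps were tested on simulated data. The progression classes came from a mixed model (closed form, checked against nlme 3.1.168 in 199 genes with the same class in 199). Same-numbered libraries come from the same mouse, with correlations of their deviations from −0.24 to 0.51, so the mouse was tried as a block. Alternatives were the pseudocount, limma-voom on recovered reads, quantile normalization, a filter on low reads, the groups in the fit, a mean-variance trend, the block and each mouse left out. Leaving out the SCC library of mouse 10 or the PAP library of mouse 2 was added after the data were seen.

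Each gene was named with its role. Full values were given for genes past the threshold and for Isg15, Irf7, Stat2, Irf1, Ddx58, Ifit1, Oas1a, Igtp, Gbp2 and Parp14. Trim25, Oas2, Ifi44 and the GBP genes outside the 39 were added after their values were seen, as were those named for an extreme. Of the other lists, the largest rise and fall past the threshold were named beside Mx1, the receptors and the ligands, and some genes are not reported here. Gene positions and exon lengths are from GENCODE M21 (GRCm38), which matched all 39 genes, and promoters from RefSeq. Of the 39 genes, 8 overlap another gene of the table, so that their reads are uncertain without strand.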

Additional observations from a re-analysis of the deposited data

Results flagged for a closer look

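In groups of 6 libraries, 8 of 117 gene and group sets had a library whose gap to its nearest neighbour took up an unusually large share of the group's range on the log2(normalised reads + 1) scale. Chance alone gives about 1 such set in 20. In 7 of the 8 the library was PAP of mouse 2, lowest each time. The share of the range was 0.779 for Irf9 (567 normalised reads against 2119 to 3082 in the other papillomas), 0.738 for Oas3 (99.97 against 740.4 to 1505), 0.727 for Isg15 (34.7 against 182 to 337), 0.716 for Rsad2 (74.6 against 522 to 1128), 0.671 for Usp18 (64.4 against 439 to 1118), 0.664 for Dhx58 (99.1 against 403 to 816) and 0.628 for Oas1a (53.4 against 300.8 to 832). The eighth was CHR of mouse 10, at 0.705 for Irf9 (846 against 1930.3 to 2727). These sets are not independent, since the genes move together between libraries.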

How the results depend on the processing

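Of 123 recomputed counts of called or classed genes, 111 equalled the count as reported. The number called higher in PAP relative to CHR became 1 under quantile normalization (Oasl1) and 1 without the PAP library of mouse 2 (Trim25). The number called lower in SCC relative to PAP became 1 without that library (Trim25), and ranged from 0 to 1 when each mouse was left out. The number called lower in SCC relative to CHR became 0 by limma-voom and 0 without the SCC library of mouse 10, and ranged from 0 to 1 when each mouse was left out. The late class ranged from 0 to 1 (Ifi27l2a without mouse 2, Trim25 without mouse 10). With the mouse as a replicate block, limma kept 1 gene lower in SCC relative to CHR, Ifi27l2a at an adjusted p of 0.0294, and no call among the 39 genes changed. With the block, and also without the SCC library of mouse 10, Irf8, Ptpn6, Tlr7 and Ifi205 were called higher in SCC relative to PAP. Of 1872 recomputed fold changes of the 39 genes, 1862 stayed on their side of the threshold and 0 called values changed sign, while 21, 15 and 27 of the 39 estimates changed sign in at least 1 alternative in PAP vs CHR, SCC vs PAP and SCC vs CHR. Over all genes, calls in SCC relative to PAP went from 810 to 0 by limma-voom, with only those groups in the fit, and without mouse 3, 7 or 8, and were 1430 with the block, 2123 without mouse 10 and 2458 without its SCC library. Quantile normalization moved the median of all genes in PAP relative to CHR to 0.17, so directions of small changes depend on it.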
